A study of Mus musculus with 16 samples.

Results

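The 9 genes described here were the 3 nitric oxide synthases (Nos1, Nos2 and Nos3), 4 subunits of the phagocyte NADPH oxidase (Cybb, Cyba, Ncf1 and Ncf4), the small GTPase Rac2 that activates it, and heme oxygenase 1 (Hmox1). They were chosen by name for these roles out of 55487 gene identifiers, and all 9 were among the 18859 genes tested. RNA came from the cortex of 16 WT C57Bl6 male mice, 2 months old, that were given LPS (lipopolysaccharide, a bacterial cell wall product) at 2 mg/kg or PBS (saline) by i.p. injection. The 2 injections fell on consecutive days at ZT1 or ZT13, where ZT counts hours from lights on, so that ZT1 was early in the light phase and ZT13 early in the dark phase. Cortex was taken 24 hours after the later injection. Each time of day (TOD) had 3 mice on PBS and 5 on LPS, which gives the groups ZT1 PBS, ZT1 LPS, ZT13 PBS and ZT13 LPS. All mice were wild type and were sampled at this single interval. The RNA was of the whole tissue, so more cells of a type and more RNA per cell cannot be told apart.

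Nitric oxide synthases make nitric oxide from arginine. NOS1 is the neuronal form, found in the cortex mainly in scattered interneurons, NOS3 is the form of endothelial cells that lowers vascular tone, and NOS2 is the form that immune stimuli induce in myeloid and other cells. The phagocyte oxidase passes electrons from NADPH to oxygen to make superoxide, which can react with nitric oxide to give peroxynitrite. Its membrane core is cytochrome b-245, made of the catalytic subunit CYBB (gp91phox) and its partner CYBA (p22phox). NCF1 (p47phox) and NCF4 (p40phox) are among the parts that join the core from the cytosol, together with RAC2 or RAC1. In the brain this complex is best known from microglia, and outside it from neutrophils and monocytes. HMOX1 breaks down heme and is induced by oxidative stress.

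Values are CPM, reads of a gene per 1000000 reads assigned to any gene of that sample. The spacing of the low values corresponded to 20251840 to 29112758 reads per sample, with a median of 22459623. Differences were tested with limma on log2(CPM + 0.5), and a gene was called at a Benjamini-Hochberg adjusted p under 0.05 over all 18859 genes. Since the added 0.5 understates the change of a low gene, ratios of the mean CPM are given beside it. Groups follow the sample titles, which the treatment field of the labels contradicts for 12 of the 16 samples. Gfap, the intermediate filament of reactive astrocytes, ranged from 111 to 123 CPM where the title says PBS (6 samples). It ranged from 572 to 1134 CPM where the title says LPS (10 samples), so that the titles separated it without overlap. This does not check the TOD of each sample, which rests on the titles alone.

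In GRCm38, Nos2 (ENSMUSG00000020826) lies on chromosome 11 from 78920787 to 78960254. Nos1 (ENSMUSG00000029361, chromosome 5 from 117781032 to 117958840), Nos3 (ENSMUSG00000028978, 24364810 to 24384474) and Ncf1 (ENSMUSG00000015950, 134220053 to 134229625) share chromosome 5. Cybb (ENSMUSG00000015340) is on chromosome X from 9435252 to 9487771. Cyba (ENSMUSG00000006519, 122424776 to 122432930) and Hmox1 (ENSMUSG00000005413, 75093621 to 75100589) are on chromosome 8, and Ncf4 (ENSMUSG00000071715, 78244801 to 78262580) and Rac2 (ENSMUSG00000033220, 78559167 to 78572783) are on chromosome 15. Exons of Nos1, Nos3 and Ncf1 overlap exons of genes on the other strand, and whether the counting used strand is not given in the sources used here, so reads of these 3 genes could include reads of their partners. The partner of Ncf1, Gtf2ird2, stayed between 15.2 and 20.1 CPM in all 16 samples, with log2 differences after LPS of 0.13 at ZT1 (adjusted p = 0.342) and 0.01 at ZT13 (adjusted p = 0.939). Atg9b, which overlaps Nos3, was between 2.80 and 4.16 CPM, and its log2 differences after LPS were -0.15 (adjusted p = 0.484) and -0.10 (adjusted p = 0.535). Gm15587, the antisense RNA at Nos3, had means of 1.56 and 2.18 CPM at ZT1 (adjusted p = 0.184) and rose at ZT13 from 1.31 to 2.30 CPM (adjusted p = 0.00779). The antisense RNA at Nos1, Gm26995, was under 1 CPM throughout.

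The stretches before the start of 3 oxidase genes are shown because these genes code for parts that assemble and were all called higher after LPS at both TODs. RefSeq promoter sequences on GRCm38.p6 were matched by symbol for 4 of the 9 genes, and the 250 bases before the start, read 5′ to 3′ on the strand of the gene, are printed for the 3 oxidase genes among them. The start of Cybb in RefSeq falls inside the longer span of the gene given above. Capitals mark matches, on either strand, to the NF-kB letters GGGANNNNCC, the interferon response letters GAAANNGAAA (ISRE) and the STAT letters TTCNNNGAA (GAS).
Cybb, chrX:9469325-9469574, minus strand: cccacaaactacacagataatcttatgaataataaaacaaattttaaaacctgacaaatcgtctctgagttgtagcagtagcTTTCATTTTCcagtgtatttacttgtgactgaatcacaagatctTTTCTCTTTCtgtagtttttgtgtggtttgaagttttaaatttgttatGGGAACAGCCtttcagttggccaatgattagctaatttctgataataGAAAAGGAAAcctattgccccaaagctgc
Cyba, chr8:122432941-122433190, minus strand: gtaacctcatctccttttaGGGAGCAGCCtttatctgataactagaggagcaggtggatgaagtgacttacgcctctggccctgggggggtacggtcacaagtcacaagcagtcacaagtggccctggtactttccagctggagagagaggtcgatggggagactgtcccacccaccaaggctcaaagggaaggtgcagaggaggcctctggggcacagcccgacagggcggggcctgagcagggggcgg
Ncf1, chr5:134229626-134229875, minus strand: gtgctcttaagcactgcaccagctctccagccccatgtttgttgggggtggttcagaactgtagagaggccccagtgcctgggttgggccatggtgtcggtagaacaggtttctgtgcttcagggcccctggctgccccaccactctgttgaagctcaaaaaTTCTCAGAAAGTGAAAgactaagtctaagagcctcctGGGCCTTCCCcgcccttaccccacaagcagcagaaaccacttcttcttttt
The search covered 250 bases before to 50 after each start. Cybb held 3 matches to the ISRE letters and Ncf1 held 1, while Cyba held 0, and 3.44% of the 32851 RefSeq promoter windows held any. All 3 genes held 1 match to the NF-kB letters, which 20.7% of windows held. The ISRE match of Ncf1 overlaps its GAS match, and 8.30% of windows held the GAS letters. Cybb also held 1 match to the AP-1 letters TGANTCA (7.81% of windows) and, past the stretch printed, 1 to the PU.1 letters GAGGAA (28.3% of windows). The window of Nos1, which starts inside the GENCODE span of that gene, held 1 match to the PU.1 letters. In these 4 windows, the letters TGACNNNGC (antioxidant response element, 12.4% of windows) and CACGTG (E-box, 7.15%) had 0 matches. These matches are letters found in a window and not sites shown to be bound.

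The first question was how far each gene moved after LPS at each TOD. At ZT1, 7 of the 9 genes were called higher after LPS and 0 lower, against 11.1% and 5.15% of all genes tested. At ZT13, 8 were called higher and 1 lower, against 19.2% and 9.40% of all genes. With median-of-ratios scaling the genes called higher at ZT1 were 1668 of 3085 in place of 2089 of 3061, and at ZT13 2870 of 5629 in place of 3629 of 5401, while 7 of the 9 were again higher at ZT1 and 8 at ZT13. Quantile scaling shifted the log2 differences by a median over genes of -0.104 at ZT1 and -0.150 at ZT13. With it, the genes called higher were 1493 of 2919 and 2540 of 5646. The median log2 difference over the 9 genes was 1.86 at ZT1 and 2.37 at ZT13, where the medians over all genes were 0.04 and 0.05. Nos2 at ZT1 and Nos1 at ZT1 were the genes that did not pass. Nos2, Cybb and Ncf4 were under 1 CPM in all 6 PBS samples, so they entered the test through the LPS groups. The filter thus favoured a difference after LPS for them. For Nos2, 5 ZT13 LPS mice and 2 ZT1 LPS mice reached 1 CPM, so its outcome at ZT1 was not fixed. Among the other 6 genes, Nos3, Cyba, Ncf1, Rac2 and Hmox1 were called higher at both TODs. Over the other 6 genes the medians were 1.61 and 2.08, and all of these medians are descriptions.

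**Figure D1:**
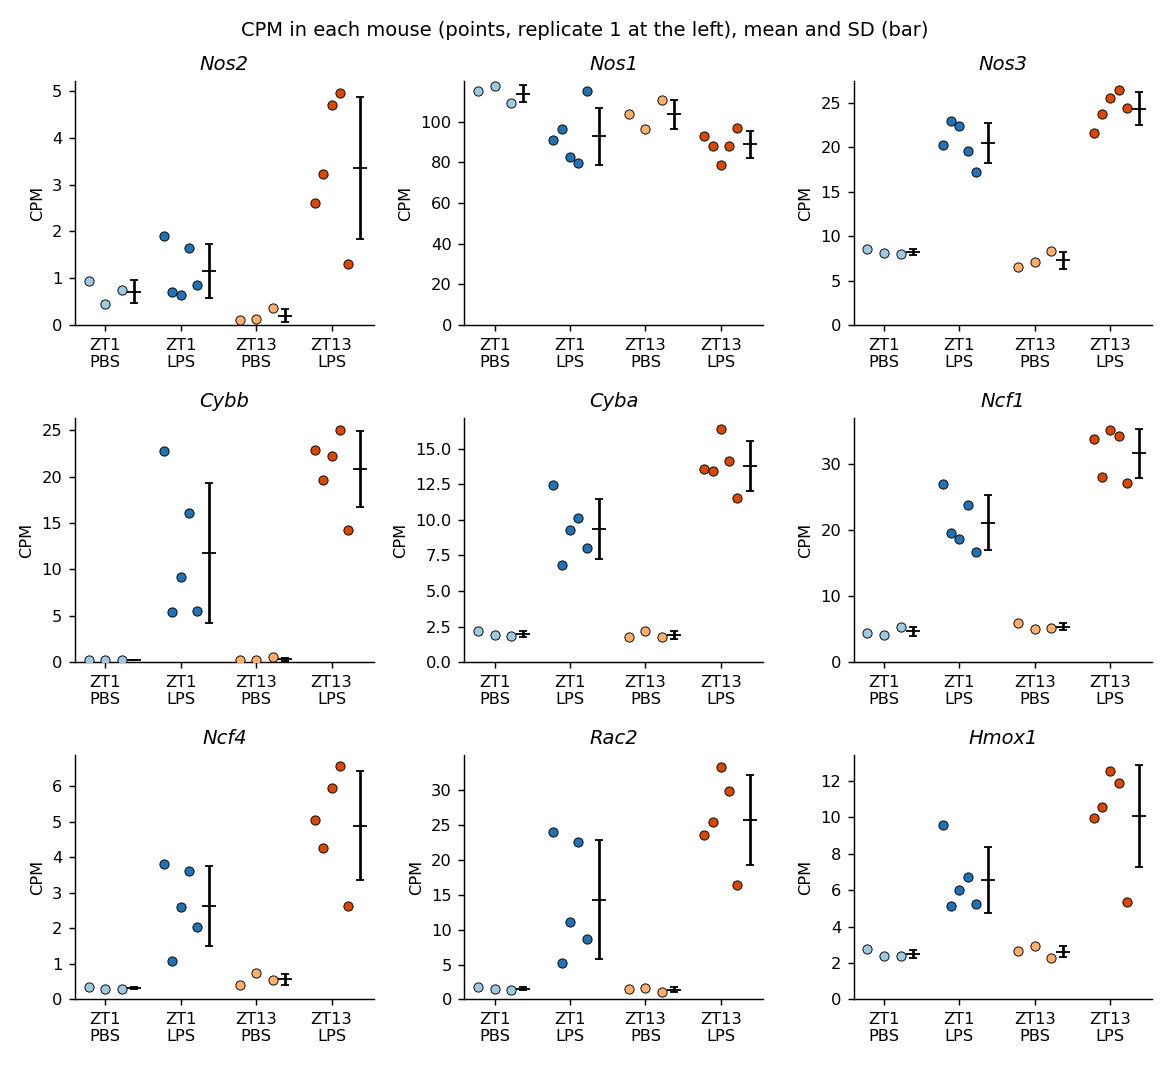
CPM of the 9 genes in each of the 16 mice (vertical axes start at 0 and differ between panels). Points are mice, and the bar beside them is the mean and SD of the group. Cybb, Cyba, Ncf1, Ncf4, Rac2, Hmox1 and Nos3 lie higher in every LPS mouse than in every PBS mouse of the same TOD (as 15.9% of all genes did at ZT1 and 20.9% at ZT13), Nos1 lies slightly lower after LPS on average, and Nos2 overlaps at ZT1 but not at ZT13.

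Among the oxidase genes, Cybb, the catalytic subunit, showed the largest ratio. It was at 0.197, 0.296 and 0.253 CPM in the ZT1 PBS mice and at 22.7, 5.37, 9.17, 16.04 and 5.48 CPM in the ZT1 LPS mice. At ZT13 the PBS mice held 0.228, 0.231 and 0.538 CPM and the LPS mice 22.9, 19.6, 22.3, 25.0 and 14.3 CPM. The PBS values rest on 4 to 12 reads a sample, and no LPS mouse came near them. The ratio of mean CPM was 47.3 at ZT1 and 62.7 at ZT13. The log2 differences were 3.82 (SE 0.40, adjusted p = 8.12e-05) and 4.68 (SE 0.17, adjusted p = 3.45e-10). With pseudocounts of 0.1 and 1 they were 4.86 and 3.15 at ZT1, and 5.65 and 4.02 at ZT13. An exact permutation test of mean CPM gave p = 0.0714 at ZT1 and p = 0.0179 at ZT13.

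Rac2, the Rac protein of hematopoietic cells, was next in size. Its ZT1 PBS values were 1.73, 1.53 and 1.31 CPM, and the ZT1 LPS mice were at 24.1, 5.15, 11.03, 22.5 and 8.70 CPM. At ZT13 it went from 1.56, 1.67 and 1.03 CPM to 23.6, 25.4, 33.4, 29.8 and 16.3 CPM. The ZT1 LPS mice were widely spread, with an SD equal to 59.5% of the mean, and the ZT13 LPS mice less so, with 25.2%. The ratio of means was 9.40 at ZT1 (log2 difference 2.66, SE 0.40, adjusted p = 0.00113). At ZT13 it was 18.1 (log2 difference 3.75, SE 0.19, adjusted p = 5.26e-09). An exact permutation test of mean CPM gave p = 0.0536 at ZT1 and p = 0.0179 at ZT13.

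Cyba, the stable partner of CYBB in the membrane, rose 4.71-fold at ZT1 and 7.20-fold at ZT13. It ranged from 1.75 to 2.22 CPM over the 6 PBS mice, from 6.85 to 12.4 CPM in the ZT1 LPS mice and from 11.5 to 16.4 CPM in the ZT13 LPS mice. Its log2 differences were 1.96 (SE 0.16, adjusted p = 1.64e-05) and 2.56 (SE 0.12, adjusted p = 2.10e-09). Ncf1, the organizer subunit that carries the cytosolic complex to the membrane, was at 4.49, 4.10 and 5.39 CPM in ZT1 PBS and at 26.9, 19.5, 18.6, 23.8 and 16.7 CPM in ZT1 LPS. At ZT13 it was at 5.92, 4.96 and 5.22 CPM after PBS and at 33.6, 28.0, 35.0, 34.1 and 27.1 CPM after LPS. The ratios of means of Ncf1 were 4.53 and 5.88, with log2 differences of 2.05 (SE 0.15, adjusted p = 5.11e-06) and 2.45 (SE 0.10, adjusted p = 5.19e-10). Ncf4, which binds the phagosome lipid PI3P, was the lowest of the oxidase genes after LPS in CPM per kb of exon. It ranged from 0.295 to 0.740 CPM over the PBS mice, from 1.07 to 3.82 CPM in ZT1 LPS and from 2.64 to 6.56 CPM in ZT13 LPS. Its ratios were 8.43 and 8.66 (adjusted p = 0.00135 and 3.93e-06). All 5 of these genes were thus higher in each LPS mouse than in each PBS mouse of the same TOD. Of all genes tested, 15.9% at ZT1 and 20.9% at ZT13 were higher after LPS without overlap.

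Of the synthases, Nos3 rose at both times with little spread. It was at 8.58, 8.05 and 8.01 CPM in ZT1 PBS and at 20.3, 22.9, 22.4, 19.6 and 17.2 CPM in ZT1 LPS. At ZT13 it was at 6.48, 7.08 and 8.31 CPM after PBS and at 21.5, 23.7, 25.5, 26.4 and 24.3 CPM after LPS. Mean CPM rose 2.49-fold at ZT1 and 3.33-fold at ZT13, with log2 differences of 1.26 (SE 0.09, adjusted p = 6.39e-06) and 1.67 (SE 0.09, adjusted p = 7.77e-09).

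Nos2 passed the test at ZT13 and not at ZT1, and the difference between the TODs did not pass its own test (interaction 1.96, adjusted p = 0.105). In ZT1 PBS it was at 0.937, 0.444 and 0.758 CPM, and in ZT1 LPS at 1.91, 0.716, 0.653, 1.65 and 0.861 CPM. Only 2 of the 5 ZT1 LPS mice exceeded the highest ZT1 PBS mouse, and the log2 difference of 0.40 had a 95% interval of -0.19 to 1.00 (adjusted p = 0.356). In ZT13 PBS it was at 0.114, 0.139 and 0.358 CPM, and in ZT13 LPS at 2.61, 3.22, 4.70, 4.96 and 1.30 CPM. All 5 ZT13 LPS mice exceeded all ZT13 PBS mice. The ratio of means was 1.62 at ZT1 and 16.5 at ZT13, where the log2 difference was 2.37 (SE 0.30, adjusted p = 4.44e-05). These are low levels, from 3 to 8 reads in the ZT13 PBS mice to 29 to 131 reads in the ZT13 LPS mice.

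Nos1 was lower on average after LPS. It was at 115, 117 and 109 CPM in ZT1 PBS and at 91.1, 96.2, 82.4, 79.7 and 115 CPM in ZT1 LPS, where 4 mice lay below every PBS mouse and replicate 5 lay among them. At ZT13 it was at 104, 96.4 and 111 CPM after PBS and at 93.1, 88.1, 78.7, 87.8 and 96.6 CPM after LPS. The log2 difference was -0.30 at ZT1 (SE 0.10, adjusted p = 0.0579), which missed the threshold, and -0.22 at ZT13 (SE 0.06, adjusted p = 0.0155), which passed it. Each call changed when a single mouse was left out. Without ZT1 LPS replicate 5 the ZT1 difference was -0.38 (adjusted p = 0.00257), and without ZT13 PBS replicate 3 the ZT13 difference was -0.17 (adjusted p = 0.0925). The ZT1 difference also passed with median-of-ratios scaling (adjusted p = 0.0354), in a single fit of all 16 samples (0.0215), with sample quality weights (0.00931) and with the replicate number as a block (0.00497). The ZT13 difference also failed with no filter on low values (adjusted p = 0.120), in the single fit (0.0771) and without the intensity trend (0.0701).

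Hmox1 rose at both times. It ranged from 2.28 to 2.91 CPM over the 6 PBS mice, and it was at 9.56, 5.15, 6.01, 6.72 and 5.21 CPM in ZT1 LPS and at 9.97, 10.6, 12.5, 11.9 and 5.37 CPM in ZT13 LPS. In the ZT13 LPS group 4 mice were at 9.97 CPM or above, and replicate 5 was within the range of the ZT1 LPS mice. The ratio of means was 2.62 at ZT1 (log2 difference 1.20, SE 0.18, adjusted p = 9.72e-04) and 3.84 at ZT13 (log2 difference 1.71, SE 0.21, adjusted p = 2.85e-05).

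**Figure D2:**
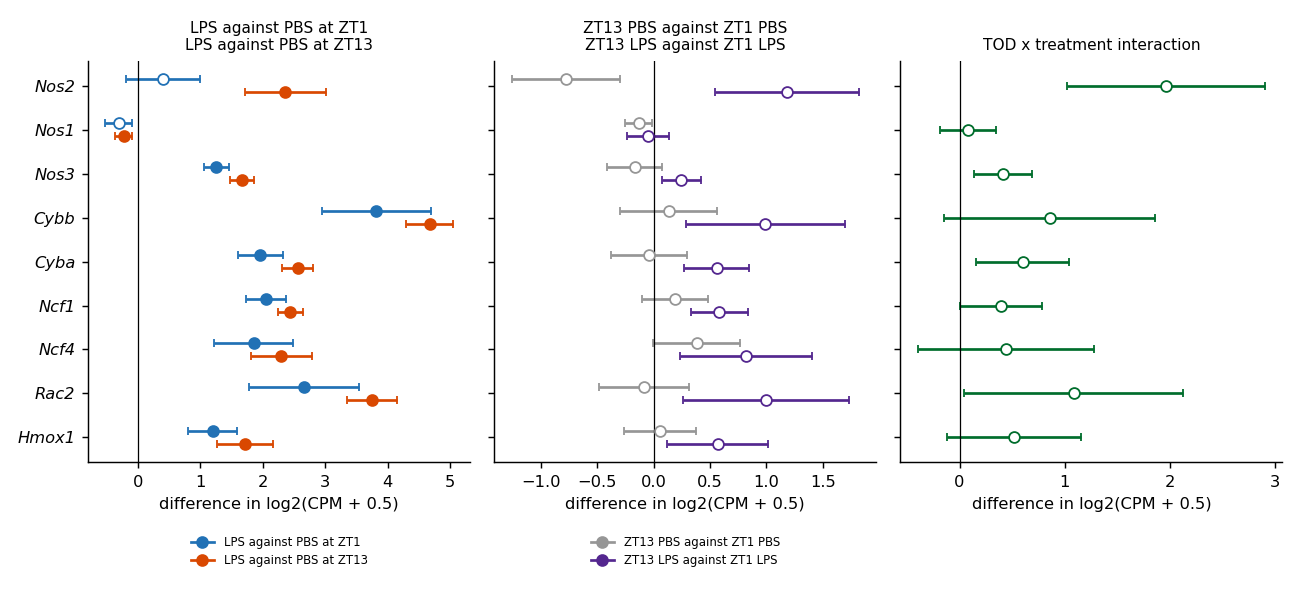
Differences in log2(CPM + 0.5) for the 9 genes with 95% intervals of the limma fit. Filled symbols passed an adjusted p of 0.05 over all genes, and open symbols did not. LPS against PBS is filled for 7 genes at ZT1 and for 9 at ZT13, and every symbol is open between the TODs and for the interaction.

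Levels of different genes were set side by side as CPM per kb of merged exon length. In ZT1 PBS cortex Nos1 was the most abundant of the 9, at 10.2 ± 0.385 CPM per kb (SD, n = 3). Nos3 (1.99 ± 0.0767) and Cyba (1.91 ± 0.203) came next and did not differ beyond their spread, followed by Hmox1 (1.43 ± 0.131) and Ncf1 (1.27 ± 0.182). Rac2 was at 0.490 ± 0.0678, Nos2 at 0.162 ± 0.0565, Ncf4 at 0.154 ± 0.0142 and Cybb at 0.0428 ± 0.00854 CPM per kb. The catalytic subunit was thus the lowest of the 9 in PBS cortex.

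In ZT13 LPS cortex the order had changed. Cyba led at 13.3 ± 1.68 CPM per kb (SD, n = 5), and Ncf1 (8.62 ± 1.01), Rac2 (8.29 ± 2.09) and Nos1 (7.97 ± 0.607) followed without differing beyond their spread. Nos3 (5.88 ± 0.450) and Hmox1 (5.75 ± 1.61) also overlapped. Cybb was at 3.58 ± 0.713, Ncf4 at 2.42 ± 0.758 and Nos2, now the lowest, at 0.761 ± 0.343 CPM per kb.

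Per kb, the makeup of the synthases shifted in each LPS mouse. Nos1 gave 82.6% ± 0.983 of the summed synthase level in ZT1 PBS and 61.3% ± 5.20 in ZT1 LPS, and 83.7% ± 1.46 and 54.6% ± 4.26 at ZT13. The PBS and LPS groups did not overlap at either TOD. The share of Nos3 rose from 16.1% ± 0.526 to 36.8% ± 5.04 at ZT1 and from 15.9% ± 1.29 to 40.2% ± 2.36 at ZT13, again without overlap. Nos2 stayed a small part. Its share was 1.31% ± 0.458 and 1.97% ± 1.06 in PBS and LPS mice at ZT1, which overlapped, and 0.405% ± 0.237 and 5.20% ± 2.29 at ZT13, which did not.

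The ratio of the 2 subunits of cytochrome b-245 was higher in every LPS mouse than in every PBS mouse. Cybb per kb was 0.0228 ± 0.00611 of Cyba in ZT1 PBS and 0.210 ± 0.0904 in ZT1 LPS (exact p = 0.0357), and 0.0322 ± 0.0199 and 0.269 ± 0.0399 at ZT13 (exact p = 0.0179). Against Ncf1 the ratio of Cybb moved in the same way, from 0.0343 ± 0.00984 to 0.330 ± 0.150 at ZT1 (exact p = 0.0357) and from 0.0395 ± 0.0222 to 0.414 ± 0.0504 at ZT13 (exact p = 0.0179). The ratio of Ncf1 to Ncf4 did not pass at either TOD (exact p = 0.125 and 0.143). Adjusted over these 6 two-sided exact permutation tests, each of the 4 p-values for Cybb became 0.0536, just past 0.05, in a design where 3 mice against 5 cannot go below 0.0179 before adjustment. These ratios are within a sample and do not depend on its library total. The PBS ratios of Cybb rest on 4 to 12 Cybb reads a sample. Cybb also entered the tests through the LPS groups, so the p-values of its ratios are not independent support.

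**Figure D3:**
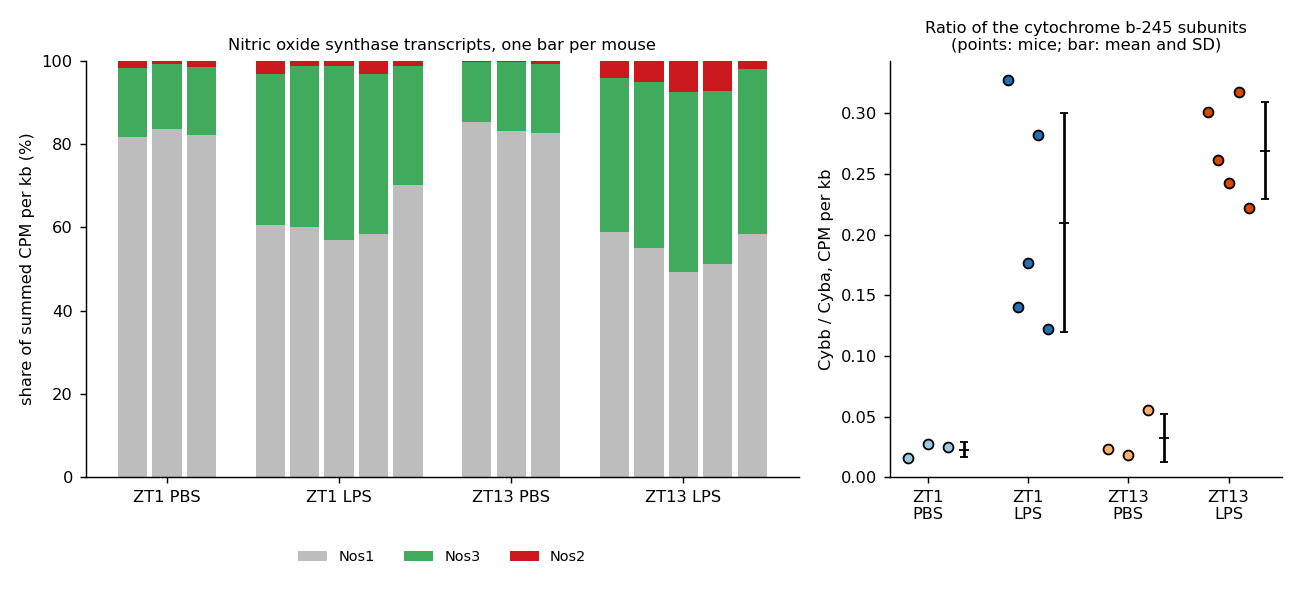
Left, the share of each nitric oxide synthase in the summed CPM per kb of the 3 genes, with a bar for each of the 16 mice. Right, the ratio of Cybb to Cyba in CPM per kb, with mice as points and the mean and SD beside them. Nos1 falls from 81.8% or more in each PBS mouse to 70.2% or less in each LPS mouse, and the ratio rises from at most 0.0550 to at least 0.122.

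The next question was whether the LPS groups differed between ZT13 and ZT1. No gene of the 9 was called by limma, where 0.0212% of all genes were, 4 in number. The differences were positive for 8 of the 9 genes and for 55.6% of all genes, with median log2 differences of 0.58 and 0.01. An unadjusted p under 0.05 was seen for 8 of the 9 and for 10.6% of all genes. The 9 genes were read in the same mice, so these counts are not independent. They include Nos2, which passed the filter on low values only through the ZT13 LPS mice. Ncf1 was the gene of the 9 whose groups did not overlap, as 1.96% of all genes tested did not. Its 5 ZT13 LPS mice were at 27.1 CPM or above and its 5 ZT1 LPS mice at 26.9 CPM or below, with a log2 difference of 0.58 (SE 0.12, adjusted p = 0.0890, exact p = 0.00794, the smallest that 5 against 5 allow).

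Nos2 had the largest difference of the 9 between the LPS groups, with means of 1.16 ± 0.580 CPM at ZT1 and 3.36 ± 1.52 CPM at ZT13 (SD, n = 5). Its log2 difference was 1.18 (SE 0.30, adjusted p = 0.156, exact p = 0.0238). Nos2 passed the filter on low values only through ZT13 LPS, where 5 mice reached 1 CPM, against 2 in ZT1 LPS. The filter thus favoured a higher ZT13 LPS level, and these p-values are not independent support. Rac2 followed with 1.00 (adjusted p = 0.295, exact p = 0.0556) and Cybb with 0.99 (adjusted p = 0.270, exact p = 0.0635). Ncf4 was at 0.82 (adjusted p = 0.273, exact p = 0.0317). Hmox1 was at 0.57 (adjusted p = 0.333, exact p = 0.0556) and Cyba at 0.56 (adjusted p = 0.142, exact p = 0.0159). Nos3 differed by 0.25 (adjusted p = 0.255, exact p = 0.0238). Nos1 differed by -0.05, with a 95% interval of -0.24 to 0.13 (adjusted p = 0.894, exact p = 0.643).

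The spread of the LPS groups had a shared order over 7 of the 9 genes. In ZT1 LPS, replicate 1 was the highest of its group for 7 of the 9 genes (Nos2, Cybb, Cyba, Ncf1, Ncf4, Rac2 and Hmox1), and replicate 2 was the lowest for 5. In ZT13 LPS, replicate 5 was the lowest for the same 7 genes. Nos1 and Nos3 did not follow this order. In ZT1 LPS, Nos3 was highest in replicate 2 and Nos1 in replicate 5. In ZT13 LPS, Nos1 was highest in replicate 5 and Nos3 lowest in replicate 1. For Cybb, Rac2, Ncf4 and Nos2, ZT1 LPS replicates 1 and 4 lay within the ZT13 LPS range while the other 3 lay below it. Without ZT1 LPS replicate 1, 4 of the 9 genes were called higher in ZT13 LPS, where 1.83% of all genes were called. These were Ncf1 (log2 difference 0.67, adjusted p = 0.0122), Cyba (0.66, adjusted p = 0.0210), Cybb (1.28, adjusted p = 0.0315) and Nos2 (1.33, adjusted p = 0.0430). Without ZT13 LPS replicate 5, 0 were called. With limma's sample quality weights Nos2, Cyba and Ncf1 were called.

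**Figure D4:**
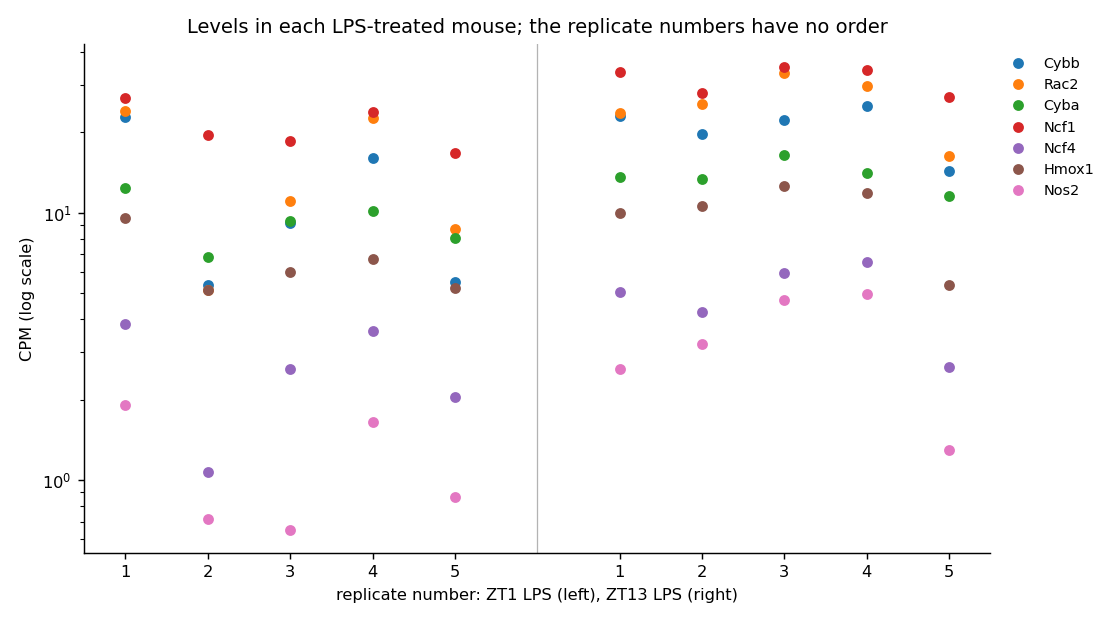
CPM on a log scale of 7 genes in each of the 10 LPS mice, ZT1 LPS on the left and ZT13 LPS on the right, with replicate numbers that carry no order. Within ZT1 LPS, replicates 1 and 4 hold the highest pair of values for each of the 7 genes, and within ZT13 LPS, replicate 5 holds the lowest. Nos1 and Nos3, which do not follow this order, are not shown.

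Markers of several cell types moved with this order, first those of cells that come from blood. The summed CPM of 5 monocyte markers (Ccr2, Ly6c2, Plac8, Chil3 and Itgal) was 1.26 to 2.11 over the PBS mice, 26.5 and 20.1 in ZT1 LPS replicates 1 and 4, 6.04 to 10.05 in the other ZT1 LPS mice, and 17.0 to 46.3 in ZT13 LPS, lowest in replicate 5. All 5 were called higher after LPS at each TOD, where 11.1% of all genes were at ZT1 and 19.2% at ZT13. These shares also stand beside the other marker counts, with 5.15% and 9.40% of all genes called lower. The sum of 10 neutrophil markers was 3.99 to 5.42 CPM over the PBS mice, 72.9 and 67.6 in ZT1 LPS replicates 1 and 4, 13.9 to 29.2 in the other ZT1 LPS mice, and 47.7 to 123 in ZT13 LPS, again lowest in replicate 5. Of these 10, 6 were tested, and 4 were called higher at ZT1 and 6 at ZT13, S100a9 with log2 differences of 4.07 and 5.63. Mpo, not tested, had a lower mean after LPS, 0.437 and 0.0940 CPM in PBS and LPS at ZT1 and 0.383 and 0.149 CPM at ZT13. Camp, also not tested, went from 0.0329 to 0.124 CPM at ZT1 and from 0.0579 to 0.0519 CPM at ZT13. Ly6g, Elane and Cxcr2 were at 0 in every PBS sample, and after LPS Ly6g (means of 0.0551 and 0.0648 CPM) and Elane (0.00687 and 0.0335 CPM) stayed near 0 while Cxcr2 averaged 3.59 CPM at ZT1 and 10.1 CPM at ZT13. The part of these cells in the levels of Cybb, Ncf1, Ncf4, Rac2 and Nos2 was not tested.

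Markers of resident cells followed the order in part. Gfap was at 945 and 802 CPM in ZT1 LPS replicates 1 and 4 and at 572 to 671 CPM in the others. In ZT13 LPS it was lowest in replicate 5, at 791 CPM. Gfap was 1 of 6 astrocyte markers, of which 4 were called higher after LPS at each TOD. Slc1a2 was not called at ZT1 (-0.04) and was lower at ZT13 (-0.13, adjusted p = 0.0303). Gja1 (-0.14 and -0.13) was called at neither. The order over mice is given here for Gfap alone of these markers. Among the ZT1 LPS mice the endothelial sum was also highest in replicates 1 and 4 (233 and 234 CPM) and lowest in replicate 2 (165 CPM), while in ZT13 LPS replicate 5 was not low (258 CPM). The sum of 8 microglia markers was 202 to 225 CPM over the PBS mice, 217 to 349 in ZT1 LPS and 255 to 303 in ZT13 LPS. In ZT1 LPS it was 349 in replicate 4, 325 in replicate 5, 308 in replicate 1 and lowest in replicate 2. In ZT13 LPS it did not follow the order, with 255 and 257 in replicates 3 and 4 and 292 in replicate 5. After LPS 5 of the 8 were higher at each TOD (Csf1r by 0.59 at both), while P2ry12 (-1.07 and -1.16) and Siglech (-1.75 and -2.43) were lower at both and Gpr34 (-1.25) at ZT13. Of 6 perivascular macrophage markers 4 were tested, and Cd163 and F13a1 were called higher at each TOD. Mrc1 (-0.06 and 0.15) and Lyve1 (0.54 and 0.36) were called at neither. Pf4, not tested, went from a mean of 0.507 to 0.266 CPM at ZT1 and from 0.336 to 0.798 CPM at ZT13. In ZT13 LPS, F13a1 alone averaged 14.5 CPM of a mean sum of 26.9 CPM. The sum of the 6 was 8.04 to 11.3 CPM over the PBS mice, 23.8 and 23.9 in ZT1 LPS replicates 1 and 4, 10.6 to 18.7 in the other ZT1 LPS mice and 25.8 to 28.9 in ZT13 LPS. The part of these resident cells in the levels of the 9 genes was not tested. Of 5 erythrocyte genes 0 were called in either comparison, and of 6 lymphocyte genes only Ighm was tested, which was lower (-1.07 and -2.21).

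Markers of endothelial cells, which express Nos3, moved in part with it. Of 8 endothelial markers, 5 were called higher and 1 lower (Flt1, -0.32) after LPS at ZT1, with Kdr at -0.11 and Tek at 0.00 not called, and 8 higher at ZT13, where Pecam1 (2.23) and Cldn5 (2.24) changed more than Nos3 on the log2 scale. Their summed CPM was 152 to 156 in ZT1 PBS, 165 to 234 in ZT1 LPS, 97.8 to 114 in ZT13 PBS and 230 to 258 in ZT13 LPS. Unlike Nos3, which was called in neither, 3 of the 8 were called lower in ZT13 PBS than in ZT1 PBS (Cldn5, -1.10, Kdr, -1.03, and Flt1, -0.49) and 5 were called positive for the interaction. Over all genes, 0.520% were called between the PBS groups and 0.159% for the interaction, in either direction. The part of endothelial RNA as a whole in the rise of Nos3 was not tested. Beside Nos1, 2 of 3 tested markers of the interneurons that hold NOS1 were lower after LPS at each TOD, namely Sst (-0.43 and -0.53) and Npy (-0.24 and -0.29), with Tacr1 at -0.15 and -0.05 (not called). Of 6 pan-neuronal, excitatory and inhibitory neuron markers, 0 were called at ZT1 and 3 were lower at ZT13.

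Between the PBS groups no gene of the 9 was called, where 0.520% of all genes were, 98 in number. At an unadjusted p under 0.05 there were 2, and 13.5% of all genes. Nos2 was lower at ZT13, with all 3 ZT13 PBS mice (0.114 to 0.358 CPM) below all 3 ZT1 PBS mice (0.444 to 0.937 CPM). Its log2 difference was -0.78 (SE 0.21, adjusted p = 0.167, exact p = 0.10, the smallest that 3 against 3 allow). Of all genes tested, 18.7% did not overlap between the PBS groups, so 2 of 9 is near the background. Ncf4 was the other of these 2, at 0.418 to 0.740 CPM at ZT13 and 0.295 to 0.345 CPM at ZT1 (log2 difference 0.38, adjusted p = 0.380). For Nos1 the log2 difference was -0.13 (adjusted p = 0.313), and for the other 6 it lay between -0.17 and 0.19.

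The TOD × treatment interaction asked whether the LPS difference itself differed between the TODs. None of the 9 was called, where 0.159% of all genes were, 30 in number. The interaction was positive for all 9 and for 54.0% of all genes, with medians of 0.51 and 0.01 on the log2 scale. Of the 9, again read in the same mice, 5 had an unadjusted p under 0.05, which 9.25% of all genes had. Nos2 was the largest at 1.96 (SE 0.45, 95% interval 1.02 to 2.90, adjusted p = 0.105). It holds a lower ZT13 PBS level and a higher ZT13 LPS level at once, since the same groups enter both. Nos2 passed the filter only through ZT13 LPS, which favoured a positive interaction, so its p-value is not independent support. Rac2 followed at 1.09 (adjusted p = 0.515), Cybb at 0.86 (adjusted p = 0.629), Cyba at 0.60 (adjusted p = 0.344) and Hmox1 at 0.51 (adjusted p = 0.653). Ncf4 (0.44), Nos3 (0.41), Ncf1 (0.39) and Nos1 (0.08) were smaller. The interaction of Nos2 passed without ZT1 LPS replicate 1 (2.11, adjusted p = 0.0343) and without ZT13 LPS replicate 5 (2.21, adjusted p = 0.0262), and at a pseudocount of 0.1 it was 2.90 (adjusted p = 0.0663). These were 2 of 16 fits with a mouse left out, where the adjusted p reached 0.295. Of 8 other settings with all mice it passed in 1, and the adjusted p reached 0.281.

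The rest of the pathway was read from lists of other genes. Of all genes tested, 11.1% were called higher and 5.15% lower after LPS at ZT1, and 19.2% and 9.40% at ZT13. The counts of each list stand beside these shares. Of 13 further oxidase genes 5 were tested. At ZT1 3 were higher after LPS, namely the proton channel Hvcn1 (1.11, adjusted p = 0.00235), the chaperone P4hb (0.54, adjusted p = 9.28e-05) and Rac1 (0.14, adjusted p = 0.0191). At ZT13 2 were higher, Hvcn1 (1.27) and P4hb (0.66), and Rac1 was at 0.10 and not called. Hvcn1 went from means of 2.71 to 6.59 CPM at ZT1 and from 3.02 to 7.54 CPM at ZT13. The other NADPH oxidases Nox1, Nox3 and Nox4, with Noxa1, Duox1, Duox2, Duoxa1 and Duoxa2, were each under 1 CPM on average in every group and were not tested. The list's medians were 0.24 and 0.18.

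Genes that supply or limit nitric oxide synthesis moved in both directions. Of 20 genes for arginine, tetrahydrobiopterin and regulators of the synthases 19 were tested (Gchfr was not). At ZT1 1 was higher and 3 were lower, and at ZT13 5 were higher and 4 lower, with medians of 0.04 and 0.03. The shares over all genes were 11.1% higher and 5.15% lower at ZT1, and 19.2% and 9.40% at ZT13. At ZT13 Arg1, the arginase that competes for arginine, rose by 1.54 (adjusted p = 1.60e-04) from a mean of 0.226 to 1.62 CPM, and Gch1, which makes the tetrahydrobiopterin cofactor, rose by 0.85 (adjusted p = 0.00198). Their ZT1 differences were 0.56 and 0.19 and did not pass. Nostrin, which binds NOS3, was higher at both times (0.62 and 0.83). Qdpr, which regenerates the cofactor, was lower at both (-0.49, adjusted p = 0.00313, and -0.60, adjusted p = 5.97e-06). Dynll1, an inhibitor of NOS1, and Ddah1, which clears the inhibitor ADMA, were lower at ZT1 (-0.28 and -0.25) and at ZT13 (-0.19, adjusted p = 0.00203, and -0.30, adjusted p = 1.36e-04).

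Of 7 effectors of nitric oxide, Vasp, a target of the cGMP-dependent kinases, was the gene higher at both times (0.86, adjusted p = 0.00207, and 1.63, adjusted p = 9.16e-08). At ZT13 Prkg2 (-0.30), a cGMP-dependent kinase, and Gucy1a2 (-0.19), a subunit of the nitric oxide receptor, were lower. The other 4, among them the receptor subunits Gucy1a1 and Gucy1b1, passed at neither TOD. The list's medians were 0.02 and -0.12. In the heme and antioxidant list, 9 of 23 genes were higher at ZT1 and 15 at ZT13, and 0 were lower, with medians of 0.19 and 0.23. Over all genes, 11.1% were higher at ZT1 and 19.2% at ZT13. Maff, a small MAF protein, had the largest differences (1.45 and 1.80), followed by Nfe2l2 (0.83 and 0.97), which encodes NRF2, the activator of Hmox1. Gpx1, a glutathione peroxidase, rose by 0.67 and 0.90, and Slc7a11, the cystine transporter, by 0.52 and 0.82. In these 4 lists 0 genes were called between the LPS groups, between the PBS groups or for the interaction.

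**Figure D5:**
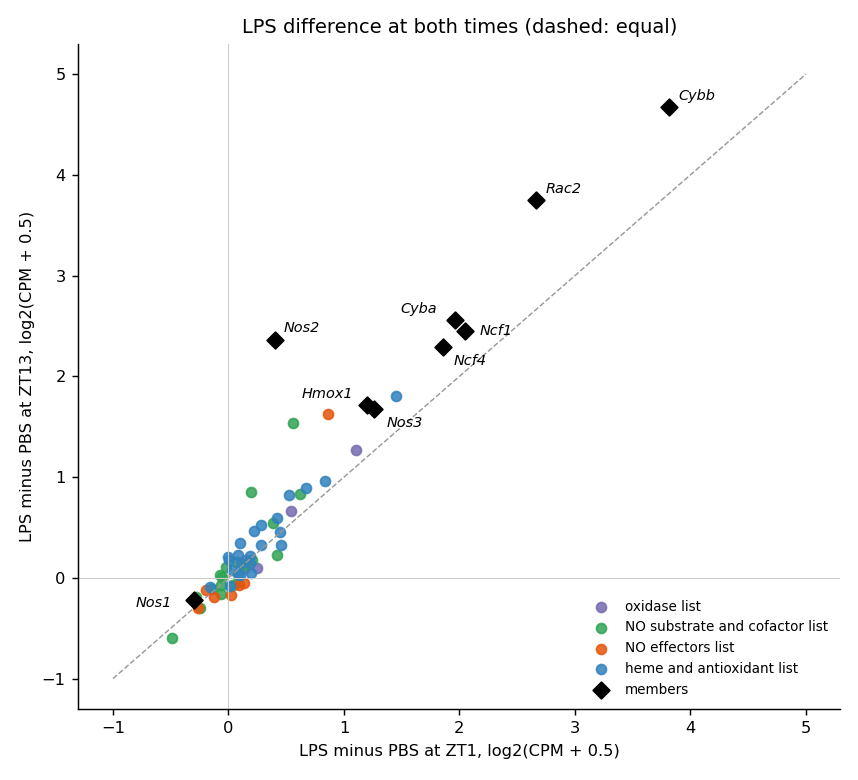
LPS minus PBS difference in log2(CPM + 0.5) at ZT1 (horizontal) and ZT13 (vertical) for the 9 genes (diamonds) and the tested genes of the 4 pathway lists (circles), with a dashed line where both are equal. Cybb and Rac2 lie farthest out, and Nos2 stands off the line with 0.40 at ZT1 and 2.37 at ZT13.

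The genes most like each member over the 16 samples were taken as those with the smallest root mean square (RMS) difference in centred log2(CPM + 0.5), among 18858 others. These describe the samples and share their libraries and treatment. For Cybb they were Msr1 (0.32 against an own RMS spread of 2.15), Siglec1 and Timp1, for Rac2 Cd52 (0.22 against 1.68), Lyz2 and Adgre1, and for Ncf4 Cyp4f18 (0.19 against 1.13), Ptprc and Acp5. For Cyba they were Arhgdib (0.10 against 1.13), Tagln2 and Itgb2, and for Ncf1 Tlr13 (0.15 against 1.13), Tagln2 and Ifitm2. Cyba and Ncf1 were the closest pair within the 9, with an RMS difference of 0.18. Nos2 was nearest to Plbd1 (0.29 against 0.95), Pygl and Cd44, Nos3 to Hspb6 (0.15 against 0.73), Nfkb2 and Cd68, Hmox1 to Pilrb2 (0.16 against 0.80), Snx20 and Arl11, and Nos1 to the pacemaker channel gene Hcn4 (0.08 against 0.18), Kirrel3 and Tmem130.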

How the data were processed

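Cortex total RNA of 16 mice was sequenced after ribosomal depletion (KAPA RiboErase). The submitters' processing notes list bcl2fastq, DRAGEN 4.0.3-8 and GRCm38, and the counting tool is not given in the sources used here. The authors deposited CPM, scaled by each sample's total over 55487 genes (287 repeated lines were removed). Between 81.0% and 82.6% of a sample's values of 20 reads or less fell on whole multiples of its lowest step (tolerance 0.01 reads), so no count test was run. Genes reaching 1 CPM in 3 or more samples were fitted with limma 3.58.1 (R 4.3.3) with an intensity trend on log2(CPM + 0.5). Each pair of groups was fitted alone, and the interaction on all 16 samples. SE and 95% intervals are those of the fit, and ± gives the SD between mice. Single values were compared by two-sided exact permutation tests, unadjusted over genes. Reads per value cover counting error only. Of the gene identifiers 55141 are in GENCODE M21, which gave positions and merged exon lengths.

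The 9 genes and all lists were chosen with earlier results of these data known, and 2 list genes are not reported here. Named from each list were up to 4 called genes with the largest change per comparison and those not detected; markers and other list genes named beside them were chosen after their values were seen. Alternatives were pseudocounts of 0.1 and 1, no filter, a minimum of 5 CPM, median-of-ratios and quantile scaling, a single fit, sample quality weights, no trend, a replicate block and leaving out each mouse. Correlations of deviations between same-numbered samples ranged from -0.199 to 0.328 over 20 pairs and were not above 0.1 in every pair, so the numbers were not used as pairs. Python 3.11.15 was used with numpy 2.4.6 and pandas 2.3.3 for the tables and with matplotlib 3.10.9 for the plots.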

Additional observations from a re-analysis of the deposited data

How the results depend on the processing

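Under all alternatives run, 7 or 8 of the 9 genes were called after LPS at ZT1, 8 or 9 at ZT13 and 0 between the PBS groups. Between the LPS groups the count of 0 became 1 in a single fit of all 16 samples (Ncf1, with 122 genes called in all), 3 with sample quality weights (Nos2, Cyba and Ncf1, with 225 in all) and 0 to 4 when each mouse was left out. For the interaction it became 1 with sample quality weights (Nos2, with 124 in all) and 0 to 1 when each mouse was left out. Of 868 recomputed values of single genes, 841 kept their direction and side of the threshold, 16 passed it newly, 4 lost it and 7 turned direction, and the cause was not tested. The turned values were all of differences that had not passed. Nos1 between the LPS groups was 0.00383 with sample quality weights, and with each mouse left out -0.11 to 0.0246. With each mouse left out, the PBS differences were -0.0354 to 0.22 for Cybb, -0.13 to 0.0245 for Cyba (0.00772 without ZT13 PBS replicate 3), -0.18 to 0.0677 for Rac2 and -0.0125 to 0.13 for Hmox1. The samples share only a replicate number, and with a replicate block 8 genes were called at ZT1, 9 at ZT13 and 0 in the other comparisons. The Nos2 reads of the ZT13 PBS mice limit how precisely its ratio is known, and at a minimum of 5 CPM Nos2 was not tested.

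Over all genes, the 3061 calls at ZT1 became 1605 with no filter, and 1767 to 3758 when each mouse was left out (1767, 1870 and 1770 without ZT1 PBS replicates 1, 2 and 3). The 4 between the LPS groups became 122 in the single fit, 225 with sample quality weights, 1 with no filter, 0 without the trend, and 0 to 345 when each mouse was left out (345 without ZT1 LPS replicate 1 and 20 without ZT1 LPS replicate 2). The 98 between the PBS groups became 158 at a minimum of 5 CPM, 199 with quantile scaling, 43 in the single fit, 65 with no filter, 57 with the block, 3 without the trend, and 12 to 87 when each mouse was left out (12 without ZT1 PBS replicate 2 and 14 without ZT13 PBS replicate 2). The 30 of the interaction became 124 with sample quality weights, 12 with no filter, 11 without the trend, 20 with quantile scaling, and 7 to 104 when each mouse was left out (7 without ZT13 PBS replicate 2 and 104 without ZT1 LPS replicate 1).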
